A study of Mus musculus with 50 samples.

Results

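The genes described here are Sirt1 to Sirt7, the mouse sirtuins, listed by symbol and followed through all 14 groups of an RNA-seq series of sorted microglia. They are 7 of the 48526 genes in the count table, and all 7 passed the filter on low counts in each of the 20 comparisons. The Hdac1 and Hdac2 genes were flanked by loxP sites on both chromosomes of every mouse, and controls lacked Cre, so what the deletions did and what Cre itself did cannot be told apart. Knockouts of the constitutive model bore Cx3cr1-Cre, and neither they nor their controls received treatment. Controls and knockouts were sampled at birth (P0: 4 and 3 libraries), at 2 weeks (14 days: 4 and 2) and at 6 weeks (45 days: 4 and 3). Knockouts of the inducible model bore Cx3cr1-CreERT2, and the pregnant dams of both groups had received 3 mg tamoxifen with progesterone on embryonic day 13. These controls and knockouts were sampled on embryonic day 16 (E16: 4 and 3 libraries) and then, as in the other model, at P0 (3 and 4), 2 weeks (4 and 4) and 6 weeks (4 and 4). Each of the 50 libraries came from 1 numbered animal. Both forms of Cre are driven by the fractalkine receptor gene Cx3cr1, which is active in microglia and in other cells of the monocyte and macrophage lineage. Embryos and newborns were decapitated and older mice perfused, so age and the way of killing cannot be told apart.

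Sirtuins remove acetyl and other acyl groups from lysines and consume nicotinamide adenine dinucleotide (NAD) in each cycle, whereas HDAC1 and HDAC2, the enzymes deleted here, use a zinc ion and no NAD. SIRT1 and SIRT6 work in the nucleus, SIRT7 in the nucleolus and SIRT2 mainly in the cytoplasm, and SIRT3, SIRT4 and SIRT5 sit in mitochondria. In microglia SIRT1 and SIRT2 are best known for restraining NF-kB, a transcription factor of inflammatory genes.

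On GRCm38 all members are annotated as protein-coding genes and were counted over their exons. Sirt1 lies on chromosome 10 (63319005 to 63381704, minus strand), Sirt6 on chromosome 10 (81621785 to 81627797, minus), and Sirt7 on chromosome 11 (120618372 to 120625240, minus). Sirt2 lies on chromosome 7 (28766735 to 28788661, plus) and Sirt3 on the same chromosome (140863666 to 140882309, minus). Sirt4 lies on chromosome 5 (115478010 to 115484725, minus) and Sirt5 on chromosome 13 (43365496 to 43395203, plus). In the GENCODE vM21 annotation 12.7% of the exon bases of Sirt3 are shared with its neighbours Ric8a (418 bases) and Psmd13 (342 bases), and 3.46% of those of Sirt7 with Mafg and Mir6936. Sirt1 and Sirt2 share 65 and 42 bases with Gm16145 and Nfkbib. The labels state no strand setting, so reads in these stretches cannot be told apart between the genes.

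Sirt2 and Sirt5 were the 2 sirtuins that fell between birth and 2 weeks in the controls of both models, and the DNA just upstream of them is shown for that reason. The stretches are the part of the 250 bases before the RefSeq start (GRCm38.p6) that no annotated exon covers, at chr7:28766641-28766734 (plus strand) and chr13:43365285-43365495 (plus strand). Capitals mark a CCAAT box, the letters CCAAT read on either strand.
Sirt2: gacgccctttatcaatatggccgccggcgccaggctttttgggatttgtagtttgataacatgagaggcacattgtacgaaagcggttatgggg
Sirt5: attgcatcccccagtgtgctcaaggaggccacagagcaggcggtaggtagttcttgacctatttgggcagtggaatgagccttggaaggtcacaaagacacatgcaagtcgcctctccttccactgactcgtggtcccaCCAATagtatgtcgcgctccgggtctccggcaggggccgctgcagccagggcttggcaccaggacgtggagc
The 94 bases shown for Sirt2 held none of the 7 motifs searched and were 50% G or C, and the 211 bases shown for Sirt5 were 59.7% G or C. Over the whole 250-base windows, a CCAAT box was found for Sirt2, Sirt3 and Sirt5 and in 33.8% of 32851 promoters. A GC box (GGGCGG) was found for Sirt1, Sirt2, Sirt3, Sirt5, Sirt6 and Sirt7 and in 32.7% of promoters. An E-box (CACGTG) was found for Sirt1 and in 6.02% of promoters, and an ETS motif (CCGGAAGT) for Sirt3 and Sirt6 and in 2.88%. A PU.1 motif (GAGGAAGT, 2.44% of promoters), a cyclic AMP response element (TGACGTCA, 1.55%) and an E2F motif (TTTCGCGC, 0.256%) matched no member. All motifs were read on both strands and matches could overlap, and the ETS and PU.1 motifs share their last letters, GGAAGT.

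The libraries held 11050277 to 29651179 counts. Hdac2 fell in 4 of the 7 knockout comparisons by edgeR's quasi-likelihood test (log2 changes -1.28 in constitutive knockouts at 6 weeks, and -1.19, -1.42 and -1.29 in inducible knockouts at P0, 2 weeks and 6 weeks), and Hdac1, with log2 values from -0.74 to 1.21, did not pass in any of them by that test. Which exons were deleted is not in the labels, so counts of either gene can include exons outside them. A few libraries stood apart from their group in a targeted gene. Hdac1 was at 35.7 CPM in the library labelled constitutive knockout 68 (P0), above its controls at 11.4 to 13.6, and at 92.2 CPM in the library labelled constitutive knockout 380 (6 weeks). Knockout 68 also held Hdac2 at 190.5 CPM, above its controls at 125.9 to 164.1. Hdac2 was at 70.1 CPM in the library labelled constitutive knockout 89 (2 weeks), within its controls at 59.8 to 71.3, and at 316 CPM in the library labelled inducible knockout 1 (E16), above its controls at 133 to 165. Without knockout 68, Hdac1 and Hdac2 both fell by the same test at constitutive P0 (median log2 -0.62). Without knockout 380, and without E16 knockout 1, 1 of the 2 genes fell. Without knockout 89, which leaves 1 knockout, their median log2 change was -0.92. CPM is the count as a share of the library total, times 1000000. The sirtuin calls that rest on these 4 libraries are given with and without them. Counts of the lists of genes around the sirtuins are given both ways where they moved most. Sums of cell markers, and marker counts at constitutive 2 weeks, are given only with them.

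Sirt7 and Sirt2 were the most abundant sirtuin transcripts in every library. Per kilobase of exon, the scale on which genes of different length can be compared, the median level over the 50 libraries was 27.4 CPM per kb for Sirt7 and 18.5 for Sirt2. It was 5.46 for Sirt1, 4.99 for Sirt5, 4.57 for Sirt4, 3.23 for Sirt6 and 2.61 for Sirt3. Sirt2 and Sirt7 took the first 2 places in 50 of 50 libraries and together made up 54.05% to 74.81% of the summed sirtuin level per kb. Which of them led depended on the library: Sirt7 was higher in 31 and Sirt2 in 19. Below them the order varied more, although Sirt1 was above Sirt3 in 50 and above Sirt6 in 49, and Sirt4 was above Sirt3 in 49. The place of Sirt5 rests on the exon length of 1367 bases given in the deposited table, where the vM21 annotation holds 6093.

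**Figure D1:**
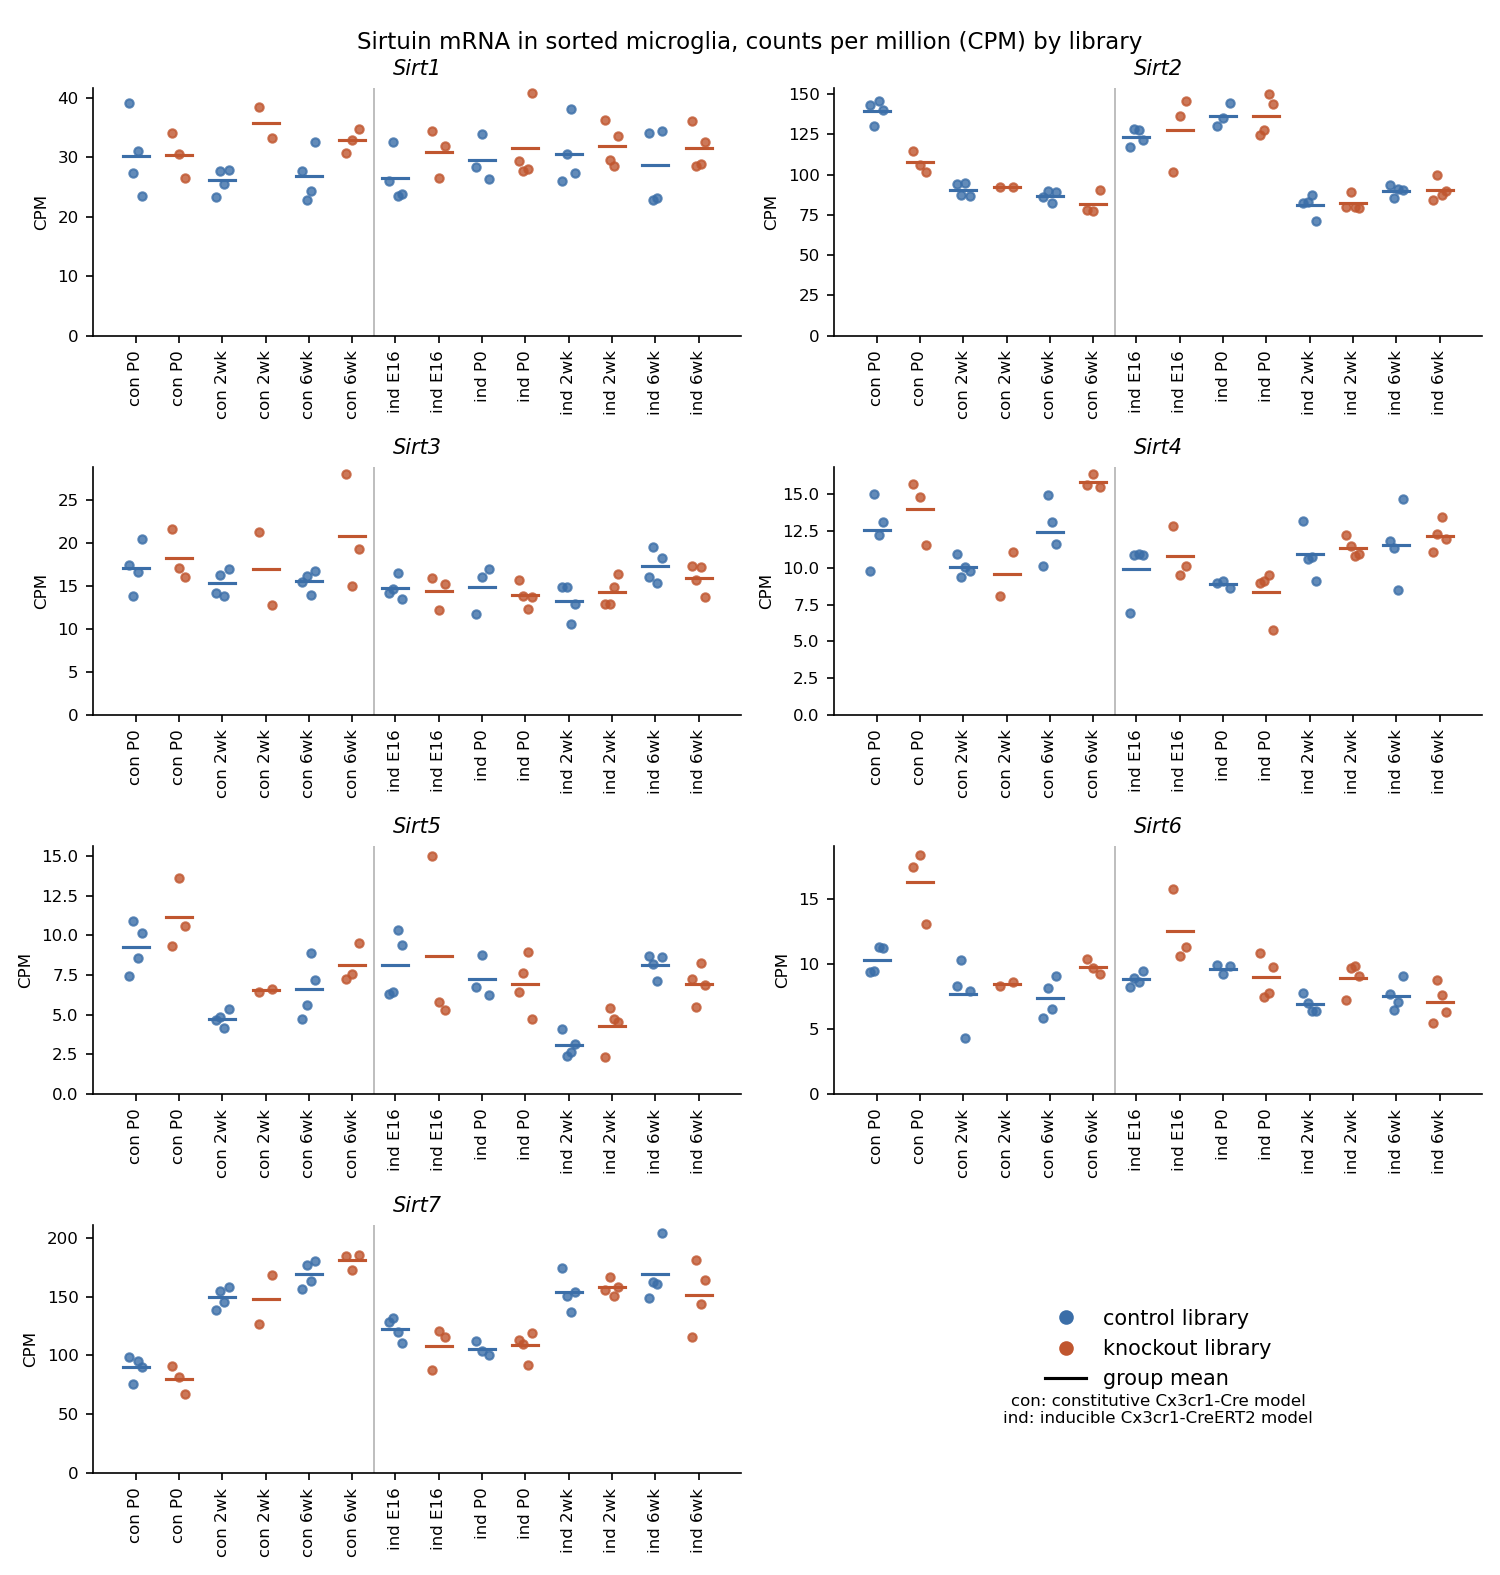
Level of each sirtuin in CPM (vertical axis, linear scale) in each library, by group (horizontal axis). Each point is 1 library and each bar a group mean, and the plot shows that Sirt2 had its own highest levels at E16 and P0 (101.7 to 150.2 CPM) and Sirt7 its own at 2 and 6 weeks (115.8 to 204.2 CPM). For Sirt7 the ages overlapped by library, since E16 controls reached 131.6 CPM.

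Among the nuclear members, Sirt1, the deacetylase of histones and of transcription factors such as the FOXO family, was the steadiest sirtuin. It ranged from 22.8 to 40.9 CPM over the 50 libraries with a median of 29.1, and its highest group mean was 1.37 times its lowest. The lowest means were those of constitutive controls at 2 weeks (26.1 ± 2.17 CPM, SD, n = 4), inducible controls at E16 (26.5 ± 4.19, n = 4) and constitutive controls at 6 weeks (26.8 ± 4.29, n = 4). Its highest mean was that of constitutive knockouts at 2 weeks, 35.9 ± 3.72 CPM (n = 2; 38.5 in the library left without knockout 89). The other means lay between 28.7 and 32.8 CPM, and every group in the order of means overlapped its neighbour.

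Sirt6, which acts in DNA repair and at telomeres, had a median of 8.998 CPM (4.27 to 18.4). Its mean was highest in constitutive knockouts at P0 (16.3 ± 2.86 CPM, n = 3), next in E16 knockouts (12.5 ± 2.79, n = 3, and 10.9 as the mean of the 2 libraries left without knockout 1), and lowest in inducible controls at 2 weeks (6.89 ± 0.656, n = 4). The 4 constitutive controls at P0 held 9.37, 9.45, 11.3 and 11.3 CPM, and the 3 knockouts of that age 17.5, 18.4 and 13.1 CPM, so that these 2 groups did not overlap in CPM. Without knockout 68 the knockout mean was 15.7 CPM (n = 2). The share of all genes without overlap between these groups was not counted. Neighbouring groups in the order of Sirt6 means overlapped.

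Sirt7, a nucleolar deacetylase tied to transcription of ribosomal RNA genes, had the widest absolute range, from 66.9 to 204 CPM with a median of 141. At P0 its means were 79.65 ± 12 CPM in constitutive knockouts (n = 3), 90.01 ± 10.06 in constitutive controls (n = 4), 105.5 ± 6.19 in inducible controls (n = 3) and 108.6 ± 11.8 in inducible knockouts (n = 4). At E16 they were 107.9 ± 17.9 in knockouts (n = 3) and 122.6 ± 9.33 in controls (n = 4). Higher levels were measured later: 147.6 ± 29.7 in constitutive knockouts (n = 2) and 149.3 ± 9.01 in constitutive controls (n = 4) at 2 weeks, and 153.9 ± 15.3 and 158.1 ± 6.78 in inducible controls and knockouts (n = 4 each). At 6 weeks the means were 151.3 ± 28.3 in inducible knockouts (n = 4), 169.1 ± 24.1 in inducible controls (n = 4), 169.4 ± 11.1 in constitutive controls (n = 4) and 181.0 ± 7.23 in constitutive knockouts (n = 3). In that order of means, neighbouring groups were separated without overlap at 1 place, between constitutive controls and inducible controls at P0.

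Sirt2, which deacetylates alpha-tubulin among other proteins, ranged from 71.2 to 150 CPM with a median of 93.0. Its early means were 139.8 ± 6.86 CPM in constitutive controls at P0 (n = 4), 136.6 ± 7.41 in inducible controls at P0 (n = 3), 136.7 ± 12.2 in inducible knockouts at P0 (n = 4), 128.0 ± 23.1 in E16 knockouts (n = 3) and 123.6 ± 5.39 in E16 controls (n = 4). Constitutive knockouts at P0 held 107.6 ± 6.77 CPM (n = 3, from 101.7 to 115.0), apart from both neighbours in the order. The lowest E16 knockout, at 101.9 CPM, lay within that range. All 2-week and 6-week groups lay below the constitutive knockouts at P0, with means from 80.9 ± 6.85 CPM in inducible controls at 2 weeks (n = 4) to 92.2 in constitutive knockouts at 2 weeks (92.1 and 92.2, n = 2).

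The mitochondrial members were scarcer. Sirt3, the main deacetylase of mitochondrial enzymes, had a median of 15.6 CPM (10.6 to 28.0), and its group means ran from 13.3 ± 2.02 in inducible controls at 2 weeks (n = 4) to 20.8 ± 6.63 in constitutive knockouts at 6 weeks (n = 3). That highest mean came largely from 1 library at 28.0 CPM, since the other 2 were at 15.01 and 19.3. Sirt4, which restrains glutamate dehydrogenase, had a median of 10.9 CPM (5.76 to 16.3), with means from 8.32 ± 1.73 in inducible knockouts at P0 (n = 4) to 15.8 ± 0.467 in constitutive knockouts at 6 weeks (n = 3). For both genes all neighbouring groups overlapped.

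Sirt5, which removes succinyl and malonyl groups, was the sirtuin with the largest relative range: its highest group mean was 3.64 times its lowest. Inducible controls held 6.28, 6.43, 10.3 and 9.40 CPM at E16, 6.76, 8.80 and 6.26 at P0, 4.10, 2.40, 2.66 and 3.13 at 2 weeks, and 8.69, 8.20, 7.10 and 8.62 at 6 weeks. The 2-week values thus lay below all values of the other 3 ages. Constitutive controls held 7.42, 10.9, 8.60 and 10.1 CPM at P0, 4.68, 4.84, 4.14 and 5.36 at 2 weeks, and 4.75, 5.62, 8.91 and 7.19 at 6 weeks. There the 2-week values lay below those at P0 and overlapped those at 6 weeks. In the order of all 14 means the 1 place without overlap was between constitutive controls (4.75 ± 0.502, n = 4) and constitutive knockouts at 2 weeks (6.55 ± 0.123, n = 2). Sirt5 is also the least precisely counted member, with a median counting error of 8.63% of its level against 2.37% for Sirt2 and 1.93% for Sirt7. That error covers counting alone.

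In controls, birth to 2 weeks was the interval with the most called sirtuins. Sirt7 rose and Sirt2 and Sirt5 fell, in both models, by edgeR's quasi-likelihood test with Benjamini-Hochberg adjustment over all genes, called at an adjusted p under 0.05. In the constitutive model 3 of 7 sirtuins were called, where 63.3% of all genes tested were called, and in the inducible model 3 of 7, where 54.7% were. Against that background the count of 3 is not a result about the sirtuins as a group. Sirt7 stood at 98.7, 75.9, 95.5 and 89.9 CPM in constitutive controls at P0 and at 138.6, 154.8, 145.4 and 158.4 at 2 weeks. The 2 ages did not overlap, and the fitted log2 change was 1.02 ± 0.11 (± gives the standard error of fitted log2 changes from here on; edgeR adjusted p = 2.51e-06). In inducible controls it stood at 112.5, 103.5 and 100.6 CPM at P0 and at 174.1, 150.7, 137.1 and 153.7 at 2 weeks, again without overlap (0.76 ± 0.11, edgeR adjusted p = 0.000103).

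Sirt2 went the other way. Constitutive controls held 143.3, 130.0, 145.5 and 140.3 CPM at P0 and 94.0, 87.3, 94.8 and 86.5 at 2 weeks, a log2 change of -0.33 ± 0.09 (edgeR adjusted p = 0.00624). Inducible controls held 130.0, 135.3 and 144.6 CPM at P0 and 82.3, 82.8, 87.3 and 71.2 at 2 weeks, a log2 change of -0.54 ± 0.10 (edgeR adjusted p = 0.000648). In both models every 2-week library lay below every P0 library. The fitted log2 change of Sirt5 was -0.67 ± 0.23 in constitutive controls (edgeR adjusted p = 0.0216) and -1.02 ± 0.31 in inducible controls (edgeR adjusted p = 0.0149). The constitutive call for Sirt5 was lost without control 74 (P0), 77 or 81 (2 weeks), with adjusted p between 0.0523 and 0.0553, and the inducible call without control 55 (P0), with log2 -0.88 and adjusted p = 0.0697. Scaling by library totals, under which the median of all genes was -0.36 rather than -0.07 in the constitutive model, kept the 3 directions and calls (Sirt7 0.73, Sirt2 -0.62, Sirt5 -0.96). Sirt1, Sirt3, Sirt4 and Sirt6 passed in neither model. For Sirt4 the fitted values were -0.02 ± 0.19 in constitutive and 0.51 ± 0.21 in inducible controls (edgeR adjusted p = 0.918 and 0.0567), and whether these differ was not tested.

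Marker genes of other cells changed over the same interval. In constitutive controls 8 of 8 neuron markers fell, from a summed 627 to 1334 CPM at P0 to 3.25 to 3.95 at 2 weeks, with none of them at 0 in every library of a group. All 5 tested of 6 erythroid markers fell (555 to 1018 CPM against 2.34 to 7.78), as did 7 of 7 border macrophage markers (2015 to 2972 against 112 to 161). Microglia markers rose in 11 of 11 (21626 to 25035 CPM against 56988 to 63260). In inducible controls the border macrophage sum went from 2976 to 12191 CPM at P0 to 80.7 to 122.9 at 2 weeks, and 10 of 11 microglia markers rose. Their part in the sirtuin changes was not tested. In sorted bulk samples, fewer cells of a type and less RNA per cell cannot be told apart.

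Between the other adjacent ages a single sirtuin was called. From 2 to 6 weeks Sirt5 rose in inducible controls by a log2 change of 1.34 ± 0.23 (edgeR adjusted p = 0.000817), and in this comparison 17.1% of all genes were called. That call was kept in all 5 other fits and in the 8 fits without 1 library (log2 1.234 to 1.501). In constitutive controls no sirtuin was called over that interval by edgeR, at an unadjusted p under 0.05 or by DESeq2 (0 in each), where 17.7% of genes were called. Sirt5 was there at a log2 difference of 0.45 ± 0.23 (edgeR adjusted p = 0.206). From E16 to P0 in inducible controls no sirtuin was called by edgeR, at an unadjusted p under 0.05 or by DESeq2 (0 in each), where 0.058% of genes were called, and the smallest adjusted p among the 7 was 0.575.

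The ratio of Sirt7 to Sirt2, counts per kb within the same library, needs no scaling between libraries. In constitutive controls it was 0.628 ± 0.0428 at P0, 1.62 ± 0.172 at 2 weeks and 1.91 ± 0.0842 at 6 weeks (SD, n = 4 each). In inducible controls it was 0.971 ± 0.0817 at E16 (n = 4) and 0.758 ± 0.0834 at P0 (n = 3). At 2 weeks it was 1.87 ± 0.269 and at 6 weeks 1.84 ± 0.280 (n = 4 each). Every control library at E16 and P0 lay below every control library at 2 and 6 weeks. Knockouts had ratios of 0.722 ± 0.0686 (constitutive P0, n = 3), 0.826 ± 0.0449 (E16, n = 3), 0.784 ± 0.128 (inducible P0, n = 4), 1.57 ± 0.317 (constitutive 2 weeks, n = 2), 1.88 ± 0.0551 (inducible 2 weeks, n = 4) and 1.63 ± 0.205 (inducible 6 weeks, n = 4). In constitutive knockouts at 6 weeks the ratio was 2.17 ± 0.152 (n = 3), from 2.01 to 2.31, and all 3 libraries lay above their controls at 1.79 to 1.98. Without knockout 380 the mean was 2.16 (n = 2). The E16 knockouts were apart in the other direction, at 0.777 to 0.864 against controls at 0.894 to 1.07. Without E16 knockout 1 their mean was 0.821 (n = 2). All other knockout groups overlapped their controls, and neither separation was tested.

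**Figure D2:**
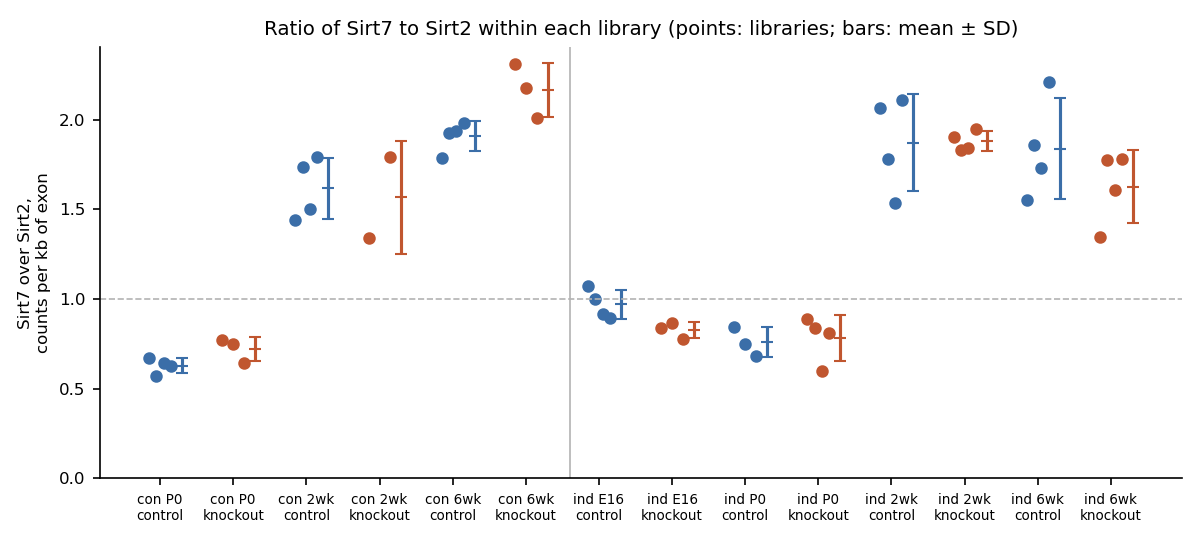
Ratio of Sirt7 to Sirt2, both as counts per kb of exon within the library (vertical axis), by group (horizontal axis), with 1 point per library and bars for the group mean ± SD. Control means lie between 0.628 and 0.971 at E16 and P0 and between 1.62 and 1.91 at 2 and 6 weeks.

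Knockouts were then compared with controls of the same age and model. In the constitutive model at P0 Sirt2 and Sirt7 fell: 2 of 7 sirtuins were called, both lower, where 41.6% of all genes tested were called. The 4 controls held Sirt2 at 143.3, 130.0, 145.5 and 140.3 CPM, and knockouts 68, 73 and 76 at 115.0, 106.1 and 101.7. All 3 knockouts lay below all 4 controls. After the trimmed-mean (TMM) scaling of the test, the same libraries stood at 165.7, 136.5, 166.4 and 154.6 in controls and at 100.9, 88.9 and 90.3 in knockouts. The fitted log2 change was -0.74 ± 0.12, with a 95% interval from -1.004 to -0.473 (edgeR adjusted p = 0.000743). The fall of Sirt2 was called in all 5 other fits (log2 -0.38 with library totals, -0.52 in 1 fit over all 14 groups and -0.74 to -0.75 in the other 3). It was also called in each fit without 1 library (log2 -0.70 to -0.82), and at -0.80 without knockout 68.

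Sirt7 in the same comparison depended on the scaling. Controls held 98.7, 75.9, 95.5 and 89.9 CPM and knockouts 90.7, 81.3 and 66.9 CPM, and these ranges overlapped. After TMM scaling the controls stood at 114.1, 79.8, 109.2 and 99.1 and the knockouts at 79.7, 68.1 and 59.4, where the highest knockout lay just under the lowest control. The fitted log2 change was -0.54 ± 0.16 (95% interval -0.88 to -0.20, edgeR adjusted p = 0.0163). The call for Sirt7 was lost with library totals as scaling (-0.18, adjusted p = 0.327), in 1 fit over all 14 groups (-0.32, adjusted p = 0.0919), and without knockout 73 (-0.53, adjusted p = 0.0549) or knockout 76 (-0.45, adjusted p = 0.0657). It held without knockout 68 (-0.66, adjusted p = 0.0150).

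The other 5 were not called there. Fitted log2 values were -0.36 ± 0.21 for Sirt1 (edgeR adjusted p = 0.185), -0.26 ± 0.21 for Sirt3, -0.19 ± 0.21 for Sirt4, -0.09 ± 0.23 for Sirt5 and 0.29 ± 0.21 for Sirt6 (edgeR adjusted p = 0.290). The median over the 7 members was -0.26, against 0.04 over all genes tested. Library totals moved the median of all genes to 0.40, and under that scaling the values of Sirt1, Sirt3, Sirt4 and Sirt5 turned to 0.01, 0.10, 0.16 and 0.27, still uncalled. Sirt6 was then called at 0.66 (edgeR adjusted p = 0.0272), and also in the fit over all 14 groups (0.52, adjusted p = 0.0489). Within the summed sirtuin counts of a library, which no scaling touches, Sirt2 made up 44.1% to 46.0% in controls and 37.6% to 41.3% in knockouts. Sirt6 made up 2.88% to 3.65% and 5.30% to 6.53%, and Sirt7 26.9% to 30.4% and 27.2% to 29.8%. The groups were apart for Sirt2 and Sirt6 and overlapped for Sirt7. These shares are parts of 1 sum, so a lower share of Sirt2 by itself raises that of Sirt6.

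**Figure D3:**
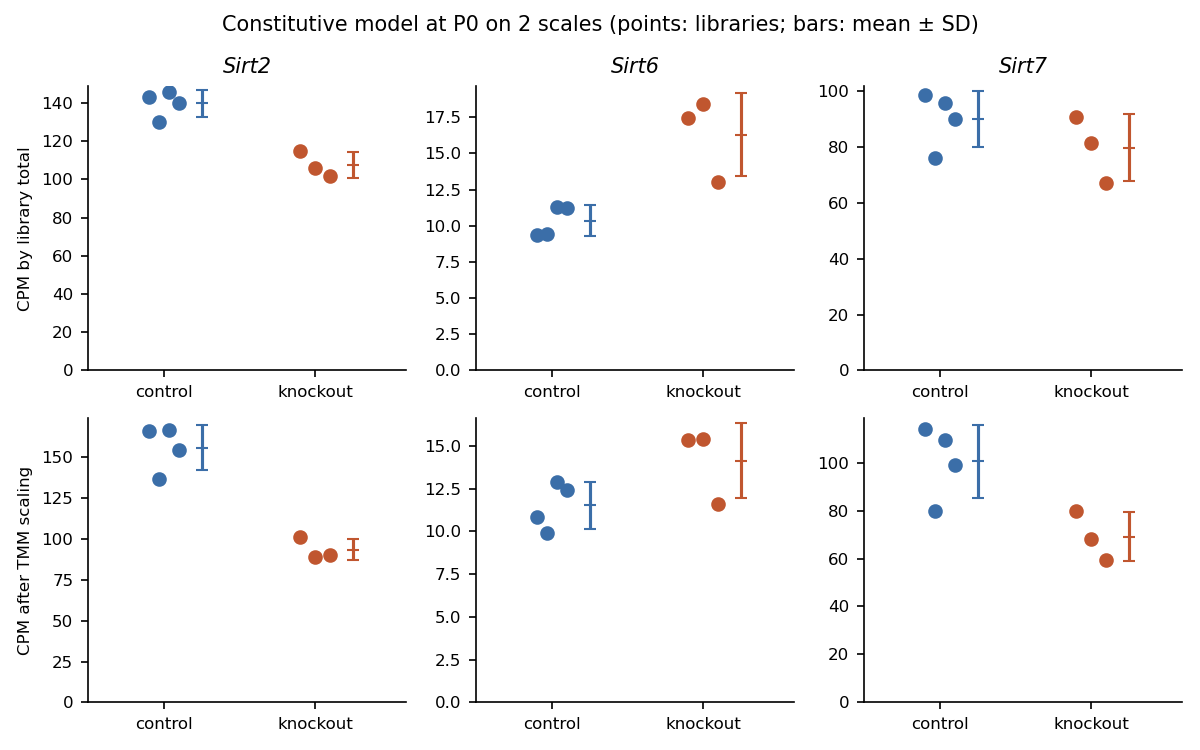
Levels of Sirt2, Sirt6 and Sirt7 in constitutive controls and knockouts at P0 (horizontal axis), in CPM by library total (upper panels, vertical axis) and in CPM after TMM scaling (lower panels), with 1 point per library and bars for the mean ± SD. Sirt2 is apart between the groups on both scales, while Sirt6 is apart only by library total (9.37 to 11.3 against 13.1 to 18.4) and Sirt7 only after TMM scaling (79.8 to 114.1 against 59.4 to 79.7).

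These libraries also differed in markers of cell types. Cx3cr1, the gene that drives Cre in the knockouts of both models, is among the 11 microglia markers. Whether the Cre allele itself changed its counts was not tested. Microglia markers fell in 11 of 11, from a summed 21626 to 25035 CPM in constitutive P0 controls to 1083 to 4029 in knockouts, so the labelled cell type was weakly marked in the knockouts, although no marker was at 0 throughout. Neutrophil markers rose in 10 of 11 (828 to 1752 CPM against 7531 to 11420) and monocyte markers in 7 of 8 (184 to 292 against 1132 to 1528). Neuron markers rose in 8 of 8 (627 to 1334 against 2135 to 2720), erythroid markers in 6 of 6 (555 to 1018 against 2070 to 2758), astrocyte markers in 7 of 7 and vascular markers in 6 of 7. Without knockout 68, 5 of 6 erythroid and 6 of 7 astrocyte markers were called higher. The part of these cells in the values of Sirt2, Sirt6 and Sirt7 was not tested.

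At 2 weeks the constitutive comparison gave 1 called sirtuin of 7, Sirt1, where 42.1% of all genes were called. Controls held Sirt1 at 23.3, 27.7, 25.5 and 28.0 CPM, and knockouts 80 and 89 at 38.5 and 33.2. Both knockouts lay above all controls, and the fitted log2 change was 0.45 ± 0.15 (95% interval 0.12 to 0.78, edgeR adjusted p = 0.0352). The call for Sirt1 was lost without any 1 of the 6 libraries, knockout 89 included (log2 0.39 to 0.48, adjusted p 0.0605 to 0.0874), without the filter on low counts (0.46, adjusted p = 0.0599) and in the fit over all 14 groups (0.46, adjusted p = 0.0623). Sirt5 stood at 6.46 and 6.64 CPM in knockouts and 4.14 to 5.36 in controls (log2 0.47 ± 0.27, edgeR adjusted p = 0.190), and the other 5 sirtuins had fitted values between -0.05 and 0.14. Their median over all 7 was 0.13, against 0.00 over all genes. Neutrophil markers summed to 462 to 1151 CPM in controls and 17903 to 50617 in knockouts (10 of 11 rose, 1 fell), monocyte markers to 18.7 to 70.2 and 1868 to 4319 (8 of 8 rose), and border macrophage markers to 112 to 161 and 2272 to 2491 (6 of 7 rose). Microglia markers summed to 56988 to 63260 and 16135 to 24418 (9 of 11 fell), and the part of any of these in Sirt1 was not tested. Leaving out knockout 89 leaves 1 knockout. Median log2 changes were then 5.42 for neutrophil, 5.07 for monocyte, 3.41 for border macrophage and -1.13 for microglia markers.

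No sirtuin was called in constitutive knockouts at 6 weeks, by edgeR, at an unadjusted p under 0.05 or by DESeq2 (0 in each), where 12% of all genes were called. Fitted log2 values ran from -0.13 for Sirt2 to 0.36 for Sirt3, with 6 of 7 above 0 and 95% intervals that together spanned -0.36 to 0.82. The smallest adjusted p was 0.335, and the median of the members was 0.24, against -0.01 over all genes. For Sirt4 and Sirt6, neither of them called, the libraries did not overlap in CPM. How many of all genes were apart in this way was not counted. Sirt4 stood at 15.6, 16.3 and 15.5 CPM in knockouts and 10.1 to 14.98 in controls (0.30 ± 0.18), and Sirt6 at 10.4, 9.71 and 9.24 and 5.88 to 9.07 (0.35 ± 0.22). Neutrophil markers summed to 897 to 1303 CPM in controls and 2639 to 5358 in knockouts (7 of 9 tested rose). Border macrophage markers summed to 29.9 to 66.3 CPM and 614 to 825 (3 of 6 tested rose), monocyte markers to 48.998 to 142 and 152 to 828 (2 of 8 rose), and microglia markers to 58091 to 60643 and 34248 to 47894 (4 of 11 fell). The part of any of these was not tested. Without knockout 380 the count of called sirtuins stayed at 0, while 1 of 8 monocyte markers rose and 3 of 11 microglia markers fell.

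In the inducible model no sirtuin was called at any age by edgeR, at an unadjusted p under 0.05 or by DESeq2 (0 in each of the 4 comparisons). The share of all genes called was 0% in the E16 comparison, 10.4% in that of P0, 2.25% in the 2-week and 0.0703% in the 6-week comparison. At E16, where 2306 of 17594 genes had an unadjusted p under 0.05 and DESeq2 called 881, the sirtuins ranged from -0.28 for Sirt7 to 0.38 for Sirt6 (intervals -0.97 to 0.88, smallest edgeR adjusted p = 0.499). Sirt6, uncalled, did not overlap in CPM here either, at 10.6 to 15.7 in knockouts (10.6 and 11.3 without knockout 1) and 8.23 to 9.46 in controls. The share of all genes apart in this way was not counted. The library labelled knockout 1 stood apart from the other 2 knockouts there, with Sirt2 at 101.9 CPM against 136.3 and 145.9, Sirt7 at 87.3 against 120.5 and 115.8, and Sirt5 at 15.02 against 5.80 and 5.29. Without it 638 genes were called (3.55%) and no sirtuin was among them, and the fitted value moved from -0.04 to 0.16 for Sirt2, from -0.28 to -0.09 for Sirt7 and from -0.06 to -0.57 for Sirt5. Knockout 1 also had the lowest total of the series, 11050277 counts. Over the 3 knockouts erythroid markers summed to 667 to 12151 CPM (median 929), against 1041 to 1374 in controls. Neuron markers summed to 279 to 2223 CPM against 251 to 781, and microglia markers to 6400 to 16769 against 17348 to 27019. Border macrophage sums overlapped (2452 to 7217 against 2391 to 6079). The part of these cells was not tested.

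At inducible P0 the fitted values lay between -0.10 and 0.11 (intervals -0.69 to 0.58, smallest edgeR adjusted p = 0.761), although Hdac2 was at 48.9 to 73.9 CPM in these knockouts and 132 to 145 in controls. Sirt2 was at 124.9, 128.0, 150.2 and 143.7 CPM in knockouts and 130.0, 135.3 and 144.6 in controls (0.02 ± 0.14, interval -0.28 to 0.32). Sirt7 was at 113.4, 109.7, 92.0 and 119.3 CPM and 112.5, 103.5 and 100.6 (0.05 ± 0.14). At 2 weeks values ran from -0.05 to 0.40 (intervals -0.36 to 1.01, smallest adjusted p = 0.432), highest for Sirt5 at 2.31, 5.44, 4.76 and 4.54 CPM in knockouts. At 6 weeks they ran from -0.26 to 0.11 (intervals -0.69 to 0.47, smallest adjusted p = 0.997). From the youngest to the oldest age the member medians were -0.04, -0.06, 0.00 and -0.14, against 0.12, -0.01, -0.01 and 0.00 over all genes. The interval of Sirt2 at inducible P0 did not reach the -0.74 fitted in the constitutive model at that age.

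**Figure D4:**
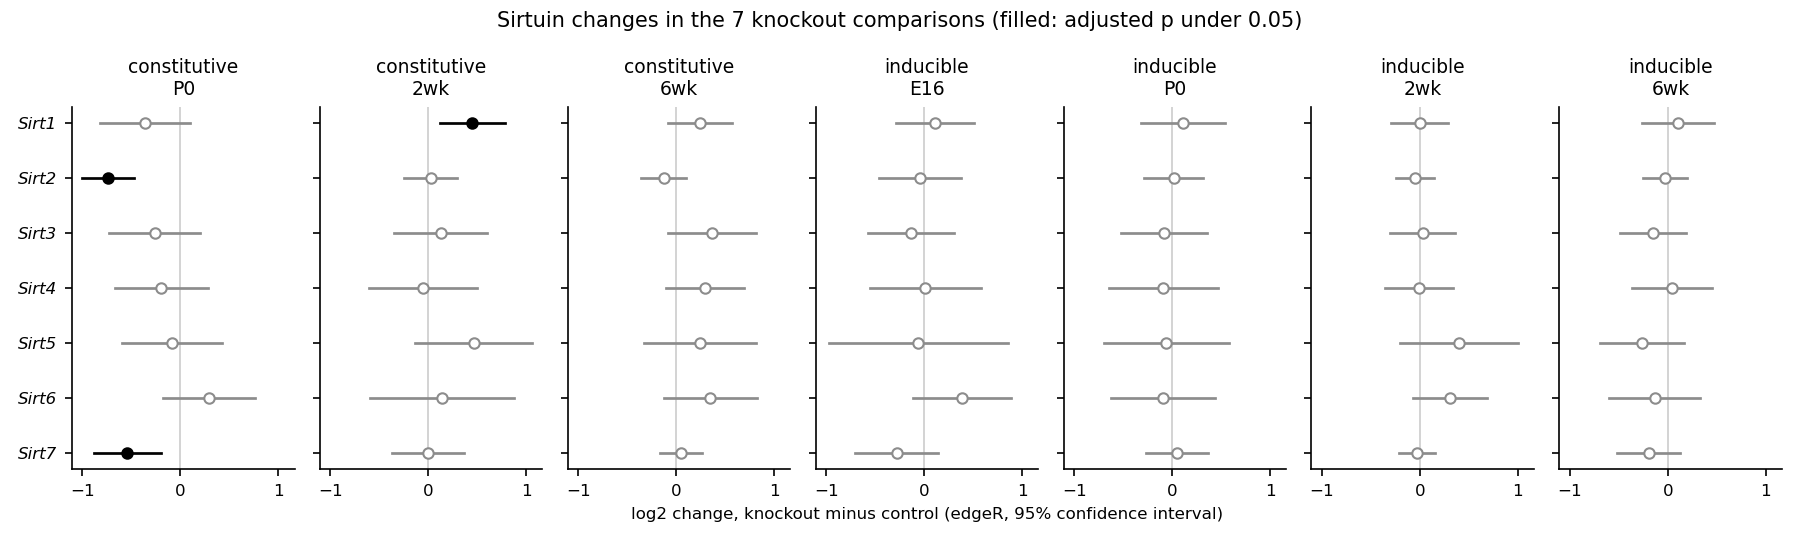
Log2 change of each sirtuin between knockout and control (horizontal axis) in the 7 knockout comparisons (panels), with points at the fitted value, bars for the 95% interval and filled points where the edgeR adjusted p is under 0.05. The called values are Sirt2 (-0.74) and Sirt7 (-0.54) in the constitutive model at P0 and Sirt1 (0.45) in the same model at 2 weeks.

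Whether a knockout difference itself differed between models or ages was tested with interaction terms. At P0 it was lower in the constitutive than in the inducible model for Sirt2 by -0.72 ± 0.17 (edgeR adjusted p = 0.00463) and for Sirt7 by -0.56 ± 0.20 (edgeR adjusted p = 0.0447), 2 of 7 where 30.9% of all genes were called. The Sirt7 interaction was not called in any of the 5 other fits (-0.22 to -0.55, adjusted p 0.0738 to 0.409) and, among the 14 fits without 1 library, was called in those without constitutive control 70, inducible control 54 or inducible knockout 53 and lost in the other 11 (adjusted p 0.0626 to 0.251). The Sirt2 interaction was lost with library totals (-0.38, adjusted p = 0.0569) and called in all 14 fits without 1 library. At 2 weeks no interaction was called by edgeR or DESeq2 (0 in each) where 31.2% of genes were, and 1 had an unadjusted p under 0.05, Sirt1 at 0.44 ± 0.21 (adjusted p = 0.121). At 6 weeks none was called by edgeR, at an unadjusted p under 0.05 or by DESeq2 (0 in each), where 4.95% of genes were.

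Within the constitutive model, the knockout difference at 6 weeks minus that at P0 was 0.58 ± 0.15 for Sirt2 (edgeR adjusted p = 0.0105) and 0.56 ± 0.18 for Sirt7 (edgeR adjusted p = 0.0388), 2 of 7 where 19.6% of all genes were called. All 7 members lay above 0, with a median of 0.56 against 0.12 over all genes. Of all calls 73.6% were higher in this fit, and 50.8% with library totals. Sirt2 was not called here with DESeq2's median-ratio (RLE) scaling in edgeR (0.40, adjusted p = 0.0589), library totals (0.30, adjusted p = 0.134) or the fit over all 14 groups (0.37, adjusted p = 0.0851), and was called in all 14 fits without 1 library. Sirt7 was called in none of the 5 other fits (0.27 to 0.56, adjusted p 0.0555 to 0.289), and its call was lost in 8 of 14 fits without 1 library, those without constitutive control 69, 71 or 74 or knockout 73 or 76 of P0, or without 1 control or either of 2 knockouts of 6 weeks (adjusted p 0.0592 to 0.104). In the inducible model the same contrast called none by edgeR, at an unadjusted p under 0.05 or by DESeq2 (0 in each), where 2.56% of genes were called. The P0 groups enter the knockout, age and interaction contrasts, so their calls share samples.

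Controls of the 2 models, which differ in prenatal tamoxifen and may differ in colony, so that the 2 cannot be told apart, gave no called sirtuin by edgeR or DESeq2 at P0, 2 weeks or 6 weeks (0 in each). The share of all genes called was 4.18%, 1.78% and 0.22%. These shares rest on single libraries: 729 genes were called at P0, and 2 without constitutive control 74 but 1638 without inducible control 56. The 246 genes called at 2 weeks became 111 without inducible control 1, and the 31 at 6 weeks became 14 without 1 constitutive control and 71 without another. Sirtuins with an unadjusted p under 0.05 numbered 1 at P0, where Sirt7 was 0.36 ± 0.14 higher in inducible controls (edgeR adjusted p = 0.130), 1 at 2 weeks, where Sirt5 was at -0.60 ± 0.25 (edgeR adjusted p = 0.312), and 0 at 6 weeks.

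Genes around the sirtuins were described from 6 lists. In constitutive knockouts at P0, enzymes that share NAD as a substrate were called in both directions: of 17 NAD-consuming enzymes other than sirtuins 9 fell and 4 rose, with a median log2 change of -0.61 against 0.04 over all genes. In that comparison 41.6% of all genes tested were called, and 34.1% without knockout 68, where this list still gave 9 lower and 4 higher. Those with the smallest adjusted p were the ADP-ribosyltransferases Parp14 (-1.92 ± 0.18), Parp9 (-2.02 ± 0.21), Parp12 (-1.70 ± 0.21) and Parp16 (-1.27 ± 0.24). Of 18 tested of 22 genes of NAD synthesis and transport, 3 rose and 4 fell (median 0.00). Naprt, which starts NAD synthesis from nicotinic acid, fell by 1.46 and the mitochondrial adenylyltransferase Nmnat3 by 1.49 on the log2 scale, while Kmo (1.31 ± 0.29), an enzyme of the kynurenine route, and Nmnat2 (1.10 ± 0.26), a neuronal adenylyltransferase, rose. The zinc-dependent deacetylases other than Hdac1 and Hdac2 rose in 6 of 9 and fell in 0 (median 0.40), among them Hdac7 (1.43 ± 0.23), Hdac11 (0.85 ± 0.26), Hdac4 (0.69 ± 0.13) and Hdac5 (0.45 ± 0.13). That count of 6 was 2 without knockout 68 and 3 without knockout 73 or control 71, and Hdac5 and Hdac11 lost their calls without knockout 68 (adjusted p = 0.0666 and 0.0832). All these list counts and medians rest on TMM scaling. Library totals moved the median of all genes to 0.40 and the share of calls that were higher from 51.4% to 75.9%.

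Among 24 nuclear proteins known as sirtuin substrates 2 rose and 10 fell at constitutive P0 (median -0.23), with Stat3 at -0.72 ± 0.15, Hif1a at -0.63 ± 0.13 and Nbn, a DNA repair protein, at -0.98 ± 0.23, and with Srebf2, a regulator of cholesterol genes, at 1.01 ± 0.14. Of 18 tested of 20 mitochondrial substrates 3 fell (Acss1 -1.38 ± 0.26, Sdha -0.44 ± 0.12, Ndufa9 -0.47 ± 0.13), with a median of -0.15. Of 13 regulators and partners of SIRT1 3 rose (Prkaa2 1.502, Usp22 0.51 and the SIRT1 inhibitor Ccar2 0.54) and 1 fell (Elavl1, which binds Sirt1 mRNA, -0.33 ± 0.12), with a median of 0.14. The edgeR adjusted p of these genes lay between 2.78e-05 (Parp14) and 0.0425 (Elavl1). The share of all genes called, 41.6%, is the background for these counts too. The counts and medians again rest on TMM scaling, where the median of all genes was 0.04, against 0.40 with library totals. Without knockout 68 the nuclear substrates gave 7 lower, and Ndufa9 and Elavl1 were not called (adjusted p = 0.0510 and 0.0865). The 10 nuclear substrates called lower were 4 without knockout 73, 5 without knockout 76 and 6 without control 69 or 71. Neutrophil, neuron and microglia markers moved with these lists too, with the sums given above, and their part was not tested.

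At 2 weeks in the constitutive model the NAD-consuming ectoenzymes Cd38 (6.56 ± 0.32) and Bst1 (7.11 ± 0.63) rose, with Parp4 (1.17 ± 0.20) and Parp1 (0.51 ± 0.16), 4 of 17 tested and 0 fell, where 42.1% of all genes were called. Of 15 tested genes of NAD synthesis 5 rose, led by Kmo (6.68 ± 0.67), Haao (2.87 ± 0.38), the salvage enzyme Nampt (1.35 ± 0.20) and the NAD kinase Nadk (1.70 ± 0.29), and 1 fell. Mitochondrial substrates rose in 9 of 18 and fell in 1 (median 0.35 against 0.00), with Atp5o at 1.20 ± 0.18, Sod2 at 1.03 ± 0.16, Glud1 at 0.68 ± 0.12 and Acss1 at -0.85 ± 0.16. Zinc-dependent deacetylases rose in 3 of 9 (Hdac9 1.62 ± 0.13, Hdac4 0.79 ± 0.17) and fell in 2 (Hdac10 -1.20 ± 0.18, Hdac11 -1.35 ± 0.34). Nuclear substrates rose in 4 of 22 (Pparg 5.72 ± 0.82, Xrcc6 0.70 ± 0.17) and fell in 2 (Foxo1 -1.16 ± 0.16, Ep300 -0.53 ± 0.11), and of 11 SIRT1 regulators 2 rose (E2f1 1.87 ± 0.20, Ctbp1 0.49 ± 0.16) and 1 fell (Mapk8 -1.25 ± 0.21). Without knockout 89, which leaves 1 knockout assumed to vary like the controls, 33.8% of all genes were called. The mitochondrial substrates then gave 4 higher and 2 lower, and Parp1 and Ctbp1 were not called (0.25 and 0.15, adjusted p = 0.243 and 0.398). The neutrophil, monocyte and border macrophage markers that rose in these libraries, and the microglia markers that fell, are given above with Sirt1, and their part in the lists was not tested.

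By 6 weeks in the constitutive model Cd38 (4.25 ± 0.57) and Bst1 (4.35 ± 0.70) rose, 2 of 17 NAD-consuming enzymes where 12% of all genes were called, and of 14 genes of NAD synthesis 3 rose (Kynu 2.48 ± 0.41, Nadk 0.67 ± 0.12, Nampt 0.59 ± 0.16) and 1 fell (Qprt -1.33 ± 0.36). Hdac9 rose (1.59 ± 0.16), 1 of 9 zinc-dependent deacetylases. SIRT1 regulators gave 1 of 12 higher (E2f1 1.20 ± 0.31) and 1 lower (Prkaa2 -4.55 ± 1.16), nuclear substrates 1 of 22 lower (Hif1a -0.54 ± 0.12) and mitochondrial substrates 0 of 18 by edgeR (2 at an unadjusted p under 0.05, 1 by DESeq2). Without knockout 380, where 7.83% of all genes were called, Nampt, E2f1 and Hif1a were not called (adjusted p = 0.0760, 0.0732 and 0.0593), and Cd38 and Bst1 were. Border macrophage, monocyte and neutrophil markers were higher in these knockouts, with the sums given above, and their part in the lists was not tested.

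Where no sirtuin was called, in inducible knockouts at P0, mitochondrial substrates rose in 8 of 19 and fell in 0, with a median log2 change of 0.55 against -0.01 over all genes, where 10.4% of all genes were called. The 8 became 2 without control 55 and 5 without control 54 or 56, and the 1823 genes called in all became 680 without control 55. Microglia markers summed to 21705 to 23401 CPM in controls and 9735 to 13291 in knockouts (6 of 11 fell) and border macrophage markers to 2976 to 12191 and 8420 to 15157 (0 of 7 called), and their part was not tested. The mitochondrial substrates that rose included the fatty acid oxidation enzyme Hadh (1.01 ± 0.15), the isocitrate dehydrogenase Idh2 (0.87 ± 0.18), the superoxide dismutase Sod2 (0.71 ± 0.14) and the pyruvate dehydrogenase subunit Pdha1 (0.62 ± 0.13), and without control 55 Idh2 and Pdha1 were not called (adjusted p = 0.0567 and 0.0761). Of 16 genes of NAD synthesis 2 fell, Nmrk1 (-0.997 ± 0.19) and Naprt (-1.08 ± 0.24), the second not without control 54 or 55. At inducible 2 weeks, where 2.25% of all genes were called, Cd38 rose (2.75 ± 0.50), Parp12 fell (-0.38 ± 0.09) and Kynu fell (-1.81 ± 0.42). The calls of Parp12 and Kynu were lost in 6 and 5 of the 8 fits without 1 library (highest adjusted p 0.170 and 0.118). In that comparison border macrophage markers summed to 80.7 to 122.9 CPM in controls and 143.9 to 362.8 in knockouts. Vascular markers summed to 52.4 to 73.1 and 34.4 to 41.1, and microglia markers to 56480 to 59602 and 47484.5 to 56486. The part of any of these was not tested. In E16 knockouts edgeR called 0 members of the 6 lists, where DESeq2 called 2 of 9 zinc-dependent deacetylases, 4 of 16 genes of NAD synthesis and 1 of 23 nuclear substrates, and unadjusted p under 0.05 numbered 3, 4 and 2. Of the 17594 genes in that fit edgeR called 0 and DESeq2 881, and 2306 had an unadjusted p under 0.05. Without knockout 1 of that age edgeR called 3.55% of all genes. Among the lists it called 3 of 19 mitochondrial substrates, 1 of 9 zinc-dependent deacetylases and 1 of 13 SIRT1 regulators higher, and 1 of 16 genes of NAD synthesis lower. In inducible knockouts at 6 weeks edgeR and DESeq2 each called 0 members of the lists, where edgeR called 0.0703% of all genes. The most with an unadjusted p under 0.05 were 2 of 21 nuclear substrates, where 618 of 14217 genes had one.

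In controls from P0 to 2 weeks the mitochondrial substrates were called in both directions: 1 rose and 10 fell of 19 in the constitutive model, and 1 rose and 9 fell in the inducible model, with medians of -0.24 and -0.26 against -0.07 and -0.06 over all genes. Of 16 genes of NAD synthesis 3 rose and 6 fell in the constitutive model and 1 rose and 6 fell in the inducible model. NAD-consuming enzymes gave 8 of 17 higher and 5 lower, and 4 higher and 4 lower. Nuclear substrates gave 10 of 23 higher and 4 lower, and 6 higher and 6 lower. Over all genes 63.3% and 54.7% were called in this interval. These list counts and medians rest on TMM scaling, and library totals moved the 2 medians of all genes to -0.36 and -0.28. In the constitutive model the 10 mitochondrial substrates became 6 without control 77 or 83, and the 8 NAD-consuming enzymes 5 without control 71 or 74. In the inducible model the 4 higher NAD-consuming enzymes became 2 without control 55 (P0) or 1 (2 weeks), and the 4 lower ones 2 without control 56 (P0), 3 or 4 (2 weeks). The part of the neuron and border macrophage markers that fell with these lists was not tested.

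Levels of the sirtuins were also compared with each other and with other genes across the 14 group means. On log2(CPM + 1) values, Pearson's r was -0.82 between Sirt2 and Sirt7, -0.76 between Sirt6 and Sirt7, 0.73 between Sirt3 and Sirt4, and 0.65 between Sirt3 and Sirt5. These are descriptions over 14 points that share ages, models and library scaling. Of 10893 genes with a mean of at least 5 CPM, the 3 whose group means ran most like those of Sirt2 were Vmp1 (r = 0.972), Susd1 (0.966) and Gprc5c (0.951). For Sirt7 they were Kctd11 (0.978), Zfp36l2 (0.973) and Tmem39a (0.969), for Sirt6 Bbs1 (0.954), Ampd2 (0.951) and Rbmx (0.9498), and for Sirt5 Setd6 (0.949), Tmub1 (0.931) and Ccdc181 (0.928). For Sirt3 they were Pde4a (0.913), Cers5 (0.869) and Mmp14 (0.835), and for Sirt4 Izumo4 (0.902), Dnajb5 (0.874) and Aasdh (0.871). Sirt1, the steadiest member, had the loosest matches, Nucb2 (0.807), Rasa2 (0.778) and Wdr41 (0.773).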

How the data were processed

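RNA of sorted microglia from 50 mice was sequenced after amplification from 1 ng. Reads were handled with CASAVA 1.8.2, STAR 2.5.2b, featureCounts 1.5.1 and limma 3.28.21 on GRCm38, per the submitters' processing notes; which annotation release was used is not stated there. The authors deposited raw counts per gene and CPM, and the deposited CPM equalled the count over the library total. Ensembl IDs were matched to symbols of GENCODE vM21 (48058 of 48526 genes, leaving 0.058% of counts unnamed), and groups and animal numbers came from the sample titles. Each comparison was fitted to the counts of its own groups, over all genes, with edgeR 4.0.16 (filterByExpr, TMM scaling, robust quasi-likelihood test) in R 4.3.3 and Benjamini-Hochberg adjustment, called under 0.05. Interactions used the 4 groups concerned. Alternatives were RLE scaling, library totals, DESeq2 1.42.0, no filter, 1 fit over all 14 groups, and leaving out each library. The fits were tested on simulated data. All 7 sirtuins are named in every comparison, with up to 4 called genes per list of smallest adjusted p in each knockout comparison and the 3 genes closest by correlation. The members and lists were chosen with earlier results of these data known. The p-values measure the spread between these animals. Depth, 11050277 to 29651179 counts, limits Sirt5 most (31 to 229 counts per library). Sirtuin protein sequences were not used here. The value of 1 mitochondrial substrate is not reported here, though the list's numbers of tested members and medians include it.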

Additional observations from a re-analysis of the deposited data

Results flagged for a closer look

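Among 63 checks of a sirtuin in a group of 4 libraries, 4 had a highest or lowest library whose gap to the next exceeded Dixon's 95% critical share of the group's range, and chance gives about 1 in 20. In inducible knockouts at P0, library 57 held Sirt1 at 40.9 CPM against 27.8 to 29.4 in the others (gap over range 0.879) and Sirt4 at 5.76 CPM against 8.93 to 9.49 (0.850). In inducible knockouts at 2 weeks, library 10 held Sirt2 at 89.1 CPM against 79.5 to 80.1 (0.937). In inducible controls at E16, library 2 held Sirt4 at 6.90 CPM against 10.9 to 11.0 (0.982).

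Tested differences between knockout effects were -0.72 for Sirt2 and -0.56 for Sirt7 on the log2 scale at P0 (constitutive minus inducible), and 0.58 for Sirt2 and 0.56 for Sirt7 within the constitutive model (6 weeks minus P0).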

How the results depend on the processing

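Of 700 member values under the 5 other fits, 678 kept their side of the threshold (628 of them their sign too), 19 lost a call and 3 gained one. Of 1281 values without 1 library, 1249 kept their side (1116 of them their sign too), 31 lost a call and 1 gained one. No called value changed sign, and 50 and 133 uncalled values did. The cause of these changes was not tested. The number of sirtuins called moved by over 1.5 times in 4 comparisons, and by 1 in both comparisons of controls from P0 to 2 weeks. For the knockout effect at P0 between models it was 2, and 1 with RLE scaling, 0 with library totals, 1 with DESeq2, 1 without a filter, 1 in the fit over all 14 groups, and 1 to 2 without 1 library. For the knockout effect of the constitutive model between 6 weeks and P0 it was 2, and 0, 0, 1, 1 and 0 in the same order, and 1 to 2 without 1 library. For constitutive knockouts at 2 weeks it was 1, and 0 without a filter, 0 in the fit over all 14 groups and 0 to 0 without 1 library. For constitutive knockouts at P0 it was 2, and 1 to 2 without 1 library. Without a filter Sirt5 lost its call in constitutive controls from P0 to 2 weeks (adjusted p = 0.0513), and Sirt4 gained one in inducible controls in the fit over all 14 groups (log2 0.48, adjusted p = 0.0351) and without control 4 of 2 weeks (0.62, adjusted p = 0.0384), while the losses of Sirt5 without 1 library are given with its values.

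Counts over all genes moved by over 1.5 times in several comparisons. In the fit over all 14 groups they were 1576 rather than 0 (E16 knockouts), 2743 rather than 1823 (inducible P0), 84 rather than 313 (inducible 2 weeks), 76 rather than 10 (controls, P0 against E16), 1525 rather than 2400 (inducible controls, 6 against 2 weeks), 313 rather than 729, and 51 rather than 246 (controls between models at P0 and 2 weeks), and 3770 rather than 5947 (P0 interaction). DESeq2 gave 881, 2911, 662 and 44 (against 10) in the 4 inducible knockout comparisons, 412 for P0 against E16, 2723, 493 and 139 (against 31) between controls, and 1136 rather than 474 for the inducible age interaction. Without a filter there were 888, 25, 56, 1320, 576 and 107 in inducible 2-week and 6-week knockouts, P0 against E16 and controls at P0, 2 weeks and 6 weeks. Without 1 library the counts were 1153 (without knockout 380) in constitutive 6-week knockouts, 638 (knockout 1) at E16, 680 to 1063 (control 54, 55 or 56 or knockout 49) at inducible P0, 94 to 151 (control 1 or 3 or knockout 10, 13 or 16) and 938 (knockout 6) at inducible 2 weeks, and 5 to 6 (control 1, 5 or 11 or knockout 6, 9 or 12) and 18 (knockout 4) at inducible 6 weeks. For P0 against E16 they were 126 and 5 (E16 control 2 or 4) and 3 and 17 (P0 control 55 or 56). Between controls they were 2 to 116 (constitutive 70, 71 or 74 or inducible 54 or 55) and 1638 (inducible 56) at P0, 111 to 155 (constitutive 83 or inducible 1 or 2) at 2 weeks, and 14, 19 and 71 (1 constitutive control, inducible 10 or another constitutive control) at 6 weeks. They were 3842 for the P0 interaction (constitutive knockout 73) and 254 to 314 for the inducible age interaction (control 55 or 56 of P0, control 5 or 10 or knockout 9 of 6 weeks). Library totals gave 6 for P0 against E16 and 65 for controls at P0. The share of calls that were higher went from 51.4% to 75.9% with library totals in constitutive P0 knockouts, from 42.1% to 25.7% and from 40.1% to 26.1% in constitutive and inducible controls from P0 to 2 weeks, from 47.5% to 63.1% in inducible controls from 2 to 6 weeks, from 49.5% to 67.5% in inducible 2-week knockouts (78.6% over all 14 groups), from 45.3% to 71.1% in the P0 interaction and from 73.6% to 50.8% in the constitutive age interaction (56.9% with DESeq2). It went from 65.7% to 47.1% over all 14 groups in inducible P0 knockouts.

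No paired analysis was possible because the groups compared share fewer than 2 numbers in the labels: inducible controls of 2 and 6 weeks both hold a number 1, and no other compared groups share any.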
